A study of Homo sapiens with 3 samples.

Results

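BCR on chromosome 22 and ABL1 on chromosome 9 are the genes joined in the BCR-ABL1 fusion of K562, and the ChIP-seq peaks in and around both were examined here. The members were all peaks of both deposited lists (build hg19) whose midpoint lay from 23522000 up to 23661000 on chromosome 22, the BCR window of 139 kb, or from 133589000 up to 133764000 on chromosome 9, the ABL1 window of 175 kb. They numbered 166 of 19529 peaks. The codanin-1 list gave 58 peaks in BCR and 37 in ABL1 (0.661% of its 14365 peaks), and the GATA1 list gave 56 and 15 (1.37% of its 5164 peaks).

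K562 is an established human erythroleukaemia line, and it was the only cell line in the study. The codanin-1 library was made with the homemade antibody Cod1, raised against residues 123 to 142 of the protein, and the GATA1 library with the commercial antibody N6. A rabbit IgG library was a control, but a peak list of it was not analysed here, so no background measured in the same way stands beside the values. All 3 libraries came from cells fixed for 10 minutes with 1% formaldehyde, and the labels name no treatment. There was 1 library per antibody, so no value has a replicate error and no test over samples exists. Intervals are 95% exact intervals and cover counting error only, and they treat neighbouring peaks as independent. The read depth is unknown, because the files hold peaks and no counts.

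BCR encodes a multidomain signalling protein and ABL1 a tyrosine kinase. In the Philadelphia translocation the 5′ part of BCR is joined to the 3′ part of ABL1, which yields an active fusion kinase transcribed from the BCR promoter, and K562 is known to carry extra copies of the joined segments. GATA1 is the transcription factor that directs erythroid gene expression, and codanin-1, the product of CDAN1, binds the histone chaperone ASF1. Both genes run in the direction of increasing coordinates. The K562 breakpoints were placed near 23632600 in BCR and near 133607000 in ABL1. The fused side is thus the 110.6 kb of BCR before its breakpoint and the 157 kb of ABL1 after its own. The side that does not enter the fusion is the last 28.4 kb of BCR and the opening 18 kb of ABL1, and is called the lost side below. Which exon or intron a peak lay in was not determined, since no annotation of the files' build was used.

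The RefSeq promoters of both genes (GRCh38.p14) are shown because the BCR promoter drives the fusion and because both lists had a peak at the 5′ edge of the BCR window. The 250 bases before the annotated start are printed, 5′ to 3′. GATA, the core of the motif bound by GATA1, and its reverse complement TATC would be in capitals, and neither was present in either sequence. Of 35116 RefSeq promoters, 45.6% held at least 1 of them in the same 250 bases. The GC content was 70.8% for BCR and 78.4% for ABL1, against a median of 58% over all promoters. For ABL1, which has alternative first exons, the sequence belongs to the start that RefSeq lists in that table. Their positions in the files' build were not determined.
BCR: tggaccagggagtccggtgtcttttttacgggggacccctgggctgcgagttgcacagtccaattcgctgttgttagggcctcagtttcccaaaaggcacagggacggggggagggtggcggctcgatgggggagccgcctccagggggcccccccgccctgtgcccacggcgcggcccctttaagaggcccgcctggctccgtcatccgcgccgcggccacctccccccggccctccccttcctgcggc
ABL1: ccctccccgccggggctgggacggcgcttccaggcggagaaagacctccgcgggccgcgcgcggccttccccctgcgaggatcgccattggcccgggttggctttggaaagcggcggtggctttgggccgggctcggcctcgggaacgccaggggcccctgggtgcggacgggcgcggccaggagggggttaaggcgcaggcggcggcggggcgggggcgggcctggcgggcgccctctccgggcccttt

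To ask whether peaks followed the rearrangement, peaks per 10 kb were compared between the sides of each breakpoint. In BCR both lists were dense up to the breakpoint and sparser after it. Codanin-1 had 54 peaks on the fused side, or 4.88 per 10 kb (3.67 to 6.37), and 4 on the lost side, or 1.41 per 10 kb (0.384 to 3.61). The ratio of these densities was 3.47 (1.28 to 13.2). GATA1 also had 54 peaks on the fused side, 4.88 per 10 kb, and had 2 on the lost side, 0.704 per 10 kb (0.0853 to 2.54), a ratio of 6.93 (1.83 to 58.7). Both ratios exceeded 1 by more than the counting error. By covered length, codanin-1 peaks took up 39.8% of the fused side and 8.68% of the lost side, and GATA1 peaks 18.5% and 1.05%. Peaks on the fused side lay close together, and when peaks within 1 kb of each other were merged the ratios fell to 1.97 (0.595 to 10.2) for codanin-1 and 2.95 (0.730 to 25.8) for GATA1, with intervals that include 1. The intervals also include 1 when only codanin-1 peaks with a −log10 q of 2 or more were counted (4.37, 0.684 to 182), for which GATA1 had 6 and 0 peaks, and when only peaks of a fold of at least 4 were counted (2.31, 0.320 to 101, for codanin-1 and 1.54, 0.343 to 14.2, for GATA1).

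In ABL1 no peak of either list lay on the lost side, and the fused side held 37 codanin-1 peaks (2.36 per 10 kb, 1.66 to 3.25) and 15 GATA1 peaks (0.955 per 10 kb, 0.535 to 1.58). The lost side is short. A count of 0 in 18 kb allows up to 3 peaks, or 1.67 per 10 kb, and the codanin-1 density on the fused side was 1.41 times that limit. For GATA1 this limit lies above the density on the fused side, and a difference was not detectable in the gene window. The lower end of the exact interval of the ratio was 1.09 for codanin-1 and 0.411 for GATA1. After merging, the codanin-1 ratio to the limit was 0.955, and with the breakpoint moved 5 kb towards the 5′ end it was 0.990. No difference was then shown for ABL1 within the gene window. A move of 2 kb towards the 5′ end gave a codanin-1 ratio of 1.24, and the lower end of the exact interval was already 0.960. With the breakpoint moved 5 kb the other way, 2 codanin-1 peaks fell on the lost side and the ratio was 2.65 (0.680 to 22.7).

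The 200 kb beyond each gene window showed the contrast at greater length. On the lost side of BCR no peak of either list lay in the 200 kb after the gene, for which the 95% exact interval reaches up to 0.184 peaks per 10 kb. In the 200 kb before the gene, on the fused side, there were 67 codanin-1 peaks (3.35 per 10 kb, 2.60 to 4.25) and 95 GATA1 peaks (4.75 per 10 kb, 3.84 to 5.81). On the lost side of ABL1 the 200 kb before the gene held 1 codanin-1 peak and 0 GATA1 peaks. The 200 kb after ABL1, on the fused side, held 87 codanin-1 peaks (4.35 per 10 kb, 3.48 to 5.37) and 134 GATA1 peaks (6.70 per 10 kb, 5.61 to 7.94).

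With the flanks counted in, the density ratio of the fused over the lost side of BCR was 22.2 (8.47 to 83.0) for codanin-1 and 54.8 (14.9 to 457) for GATA1. For ABL1 it was 75.7 (13.3 to 3015) for codanin-1, and for GATA1, with 0 peaks on the lost side, the fused side had 30.3 times the limit of 3 counts (lower end of the exact interval 24.4). After merging within 1 kb these were 14.5 (4.71 to 72.1) and 16.2 (4.22 to 138) for BCR, and 45.8 (7.97 to 1833) and 9.97 times the limit (lower end 7.81) for ABL1, with every lower end above 1. The flanks lie outside the genes, so these ratios describe the chromosome segments that the fusion joins. Copy number was not measured in these files.

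**Figure D1:**
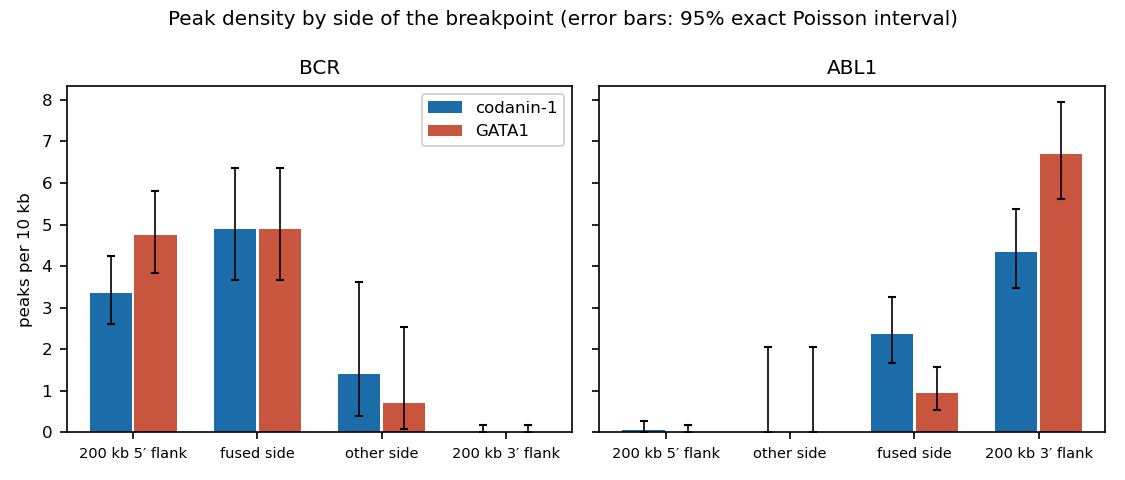
Peaks per 10 kb in the 200 kb before each gene window (5′ flank), on its fused and other (lost) side, and in the 200 kb after it (3′ flank), for codanin-1 and GATA1, with 95% exact Poisson intervals as error bars. The fused side and the flank joined to it hold peaks of both lists in both genes, on average from 0.955 to 6.70 per 10 kb, and the flank beyond each lost side holds at most 1 peak.

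Genome-wide, peaks were far sparser than on the fused sides. Over 303084 windows of 10 kb on chromosomes 1 to 22 and X, assembly gaps included, codanin-1 averaged 0.0472 peaks per window and 4.01% of windows held a codanin-1 peak. GATA1 averaged 0.0167 per window, and 1.14% of windows held a GATA1 peak. The lost side of BCR also lay above these averages, with 1.41 codanin-1 and 0.704 GATA1 peaks per 10 kb, from 4 and 2 peaks. Of the 11 complete windows on the fused side of BCR, counted from the breakpoint, all 11 held a codanin-1 peak and all 11 a GATA1 peak, with a median of 5 peaks in each list. Of the 15 complete windows on the fused side of ABL1, 13 held a codanin-1 peak and 8 a GATA1 peak. Of the 19 complete windows in the flank joined to BCR, 17 held a codanin-1 peak and 14 a GATA1 peak. In the flank joined to ABL1 all 19 held a peak of each list. On the lost sides, of the 19 complete flank windows of BCR 0 held a peak of either list, and of the 19 of ABL1 1 held a codanin-1 peak and 0 a GATA1 peak.

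At the BCR breakpoint the change was abrupt. The last codanin-1 peak of the fused side, at chr22:23632020-23632675, had a fold enrichment of 3.57 and ran 75 bp past the assumed breakpoint, whose position is given only approximately. The last GATA1 peak, at chr22:23632294-23632360, was 3.65-fold enriched, lay within that codanin-1 peak and ended 240 bp before the breakpoint. In the 10 kb before the breakpoint there were 4 codanin-1 peaks that covered 69.2% of the sequence and 8 GATA1 peaks that covered 47.3%. In the 10 kb after it, 0 midpoints of either list were found. The longest stretch without a peak in the BCR window took in the sequence just after the breakpoint in both lists. It was 17.1 kb for codanin-1 (chr22:23632676-23649770) and 17.2 kb for GATA1 (chr22:23632361-23649584). Within the fused side of BCR the longest such stretch was 8.43 kb for codanin-1 and 12.7 kb for GATA1.

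The lost side of BCR was not empty. Its 4 codanin-1 peaks lay together, at chr22:23649771-23650181 (3.80-fold), chr22:23652371-23653293 (3.81-fold), chr22:23658074-23658517 (4.08-fold) and chr22:23659317-23659928 (3.97-fold). The 2 GATA1 peaks of the lost side, at chr22:23649585-23649786 (4.25-fold) and chr22:23652546-23652640 (4.07-fold), overlapped codanin-1 peaks by 16 bp and 95 bp. Each of the 2 thus met a different one of the 4. After this group the next GATA1 peak on chromosome 22 was 919.9 kb beyond the gene window, and the next codanin-1 peak was 986 kb beyond it.

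At the ABL1 breakpoint the peaks began on the fused side within 3 kb. The nearest codanin-1 peak, at chr9:133608956-133609227 (3.56-fold), started 1.96 kb after the breakpoint, and the nearest GATA1 peak, at chr9:133609983-133610131 (3.81-fold), started 2.98 kb after it. In the other direction the nearest codanin-1 peak was 98.5 kb away, at chr9:133508396-133508496. That peak had the minimum width of the list, 101 bp, and a fold enrichment of 5.08. The nearest GATA1 peak on that side was 301.5 kb from the breakpoint, at chr9:133305245-133305489 (5.04-fold).

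**Figure D2:**
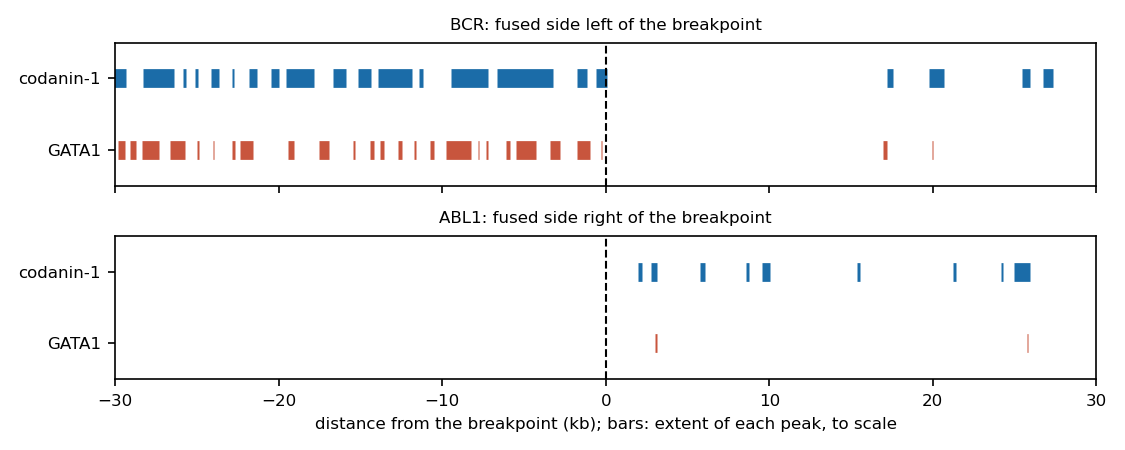
Extent of every codanin-1 and GATA1 peak with its midpoint within 30 kb of each breakpoint, drawn to scale against the distance from the breakpoint in kb (dashed line). In BCR, 17 codanin-1 and 24 GATA1 peaks lie left of the line and 4 and 2 right of it; in ABL1, 0 lie left of it and 9 and 2 right of it.

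Read in the order of the fusion, BCR before ABL1, both lists thinned at the junction by covered length. Codanin-1 peaks covered 69.2% of the last 10 kb of BCR and 14.9% of the opening 10 kb of ABL1, and GATA1 peaks 47.3% and 1.49%. Over the whole fused sides the coverage was 39.8% in BCR and 9.90% in ABL1 for codanin-1, and 18.5% and 2.69% for GATA1. In steps of 50 kb away from the breakpoint, BCR and its flank held 28, 23, 18, 24, 15 and 12 codanin-1 peaks, and 36, 16, 24, 37, 31 and 5 GATA1 peaks. Codanin-1 thus outnumbered GATA1 in 2 of these 6 steps. In the 50 kb of ABL1 after the breakpoint there were 16 codanin-1 and 4 GATA1 peaks. The next 50 kb segments of ABL1 held 6 codanin-1 and 2 GATA1 peaks, then 10 and 3. The whole lists hold 14365 codanin-1 and 5164 GATA1 peaks, so codanin-1 peaks are the more numerous over all regions as well. From 150 kb to 200 kb after the breakpoint, a segment that takes in the 3′ end of ABL1 and the flank, the counts were 22 and 42. Over the opening 150 kb of the fused side of ABL1, codanin-1 had 2.13 peaks per 10 kb (1.46 to 3.01) and GATA1 0.600 (0.274 to 1.14). Over its last 7 kb codanin-1 had 5 peaks, or 7.14 per 10 kb (2.32 to 16.7), and GATA1 6, or 8.57 per 10 kb (3.15 to 18.7). These stretches were marked off after the counts had been seen.

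The fused side of ABL1 was poorer in peaks than the flank joined to it, by a density ratio of 0.542 (0.358 to 0.805) for codanin-1 and 0.143 (0.0776 to 0.244) for GATA1. The difference between the lists, an odds ratio of 3.78 (1.89 to 7.88) for codanin-1 over GATA1, was larger than the counting error. It was 2.21 after merging and 8.37 at a −log10 q of at least 2. No interval was computed for these values, so whether they exceed the counting error was not tested. In BCR the fused side and the flank joined to it differed by less than the counting error, with density ratios of 1.46 (0.999 to 2.12) for codanin-1 and 1.03 (0.722 to 1.45) for GATA1. The odds ratio of the lists there was 1.42 (0.843 to 2.38), and 0.586 after merging. Between the fused sides themselves, BCR took 54 codanin-1 peaks to 37 in ABL1, and 54 GATA1 peaks to 15, an odds ratio of 0.408 (0.185 to 0.865). The split of BCR peaks at the breakpoint did not differ between the lists beyond the counting error (odds ratio 0.503, 0.0438 to 3.68). These comparisons of both lists at the flanks and between the fused sides were added after the counts had been seen.

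**Figure D3:**
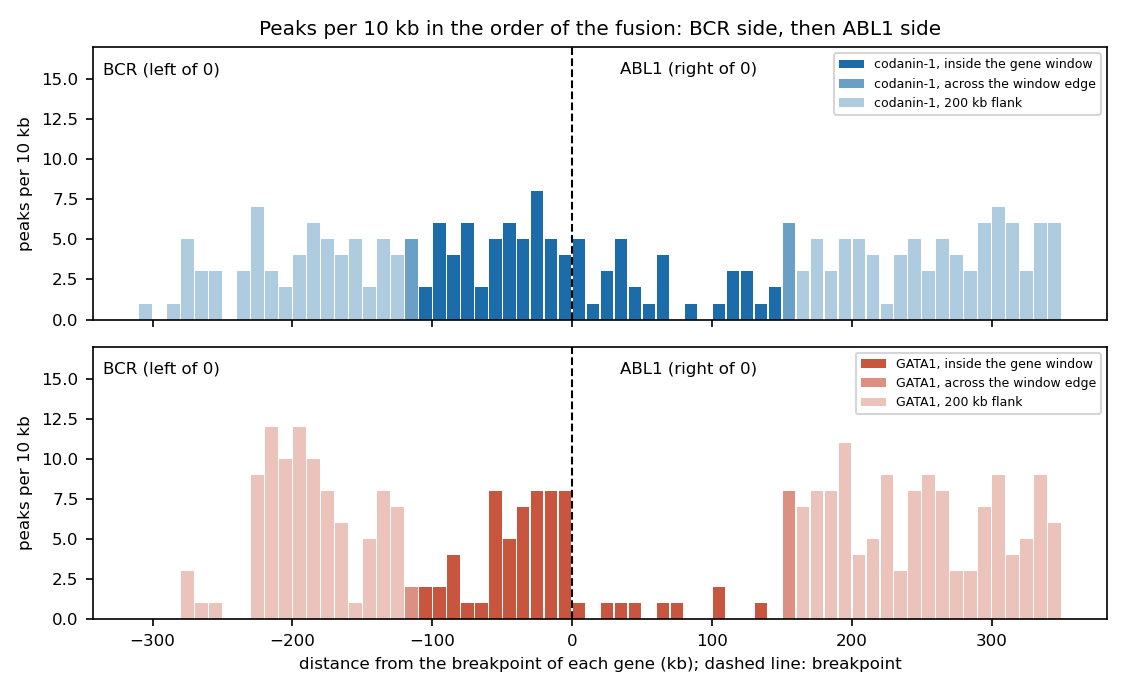
Peaks per 10 kb along the fusion, with BCR left and ABL1 right of the breakpoint (distance 0, kb), for codanin-1 (top) and GATA1 (bottom); full colour is inside the gene windows, medium across their edges and pale the 200 kb flanks. GATA1 bars fall from 8 in the last BCR window to 1 in the opening ABL1 window and rise again at the 3′ end of ABL1, and codanin-1 bars go from 4 to 5 across the junction, where the length covered by codanin-1 peaks fell from 69.2% to 14.9%.

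**Figure D4:**
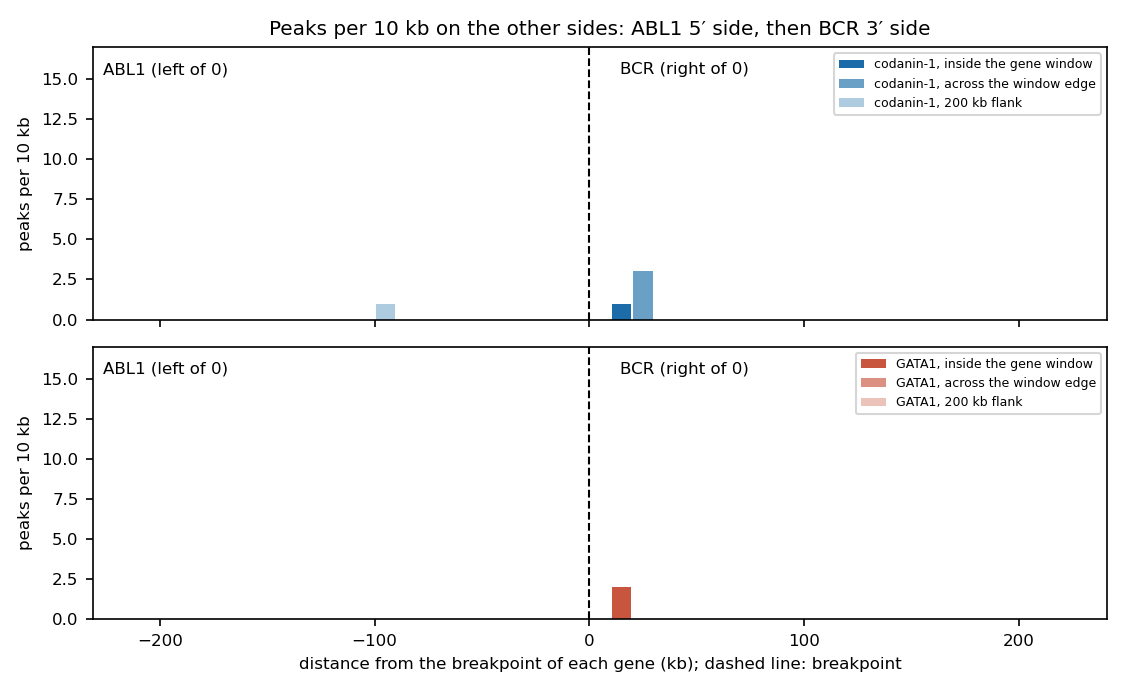
Peaks per 10 kb on the sides that do not enter the fusion, ABL1 left and BCR right of the breakpoint (distance 0, kb), on the same scale and colours. Nearly all windows are at 0, apart from 1 codanin-1 peak in the ABL1 flank and the group of 4 codanin-1 and 2 GATA1 peaks in BCR.

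Codanin-1 peaks of the fused sides, and of the flanks joined to them, were wider than the list and lower in fold. All values of single peaks are the authors' deposited values and were compared within a list. The median width of codanin-1 peaks was 565 bp on the fused side of BCR (quartiles 309 to 961) and 278 bp on that of ABL1 (175 to 544), against 220 bp in the whole list (119 to 366). At least 1000 bp was reached by 13 of 54 codanin-1 peaks on the fused side of BCR (24.1%), by 3 of 37 in ABL1 (8.11%) and by 212 of all codanin-1 peaks (1.48%). Over all codanin-1 peaks of chromosomes 22 and 9 this share was 7.93% and 4.88%, with median widths of 326 bp and 262 bp. In the flanks joined to the fused sides the share was larger than on those sides, at 31.3% beside BCR and 16.1% beside ABL1. Median widths in these flanks were 494 bp and 438 bp, so width was not particular to the genes. GATA1 peaks had a median width of 254 bp on the fused side of BCR and 190 bp on that of ABL1, against 168 bp in the whole list. In ABL1 this was below the 211 bp of all GATA1 peaks on chromosome 9. There 0 of 15 reached 1000 bp, too few peaks to set against the 2.46% of the list. On the fused side of BCR 4 of 54 GATA1 peaks did (7.41%), against 1.37% over chromosome 22. In the joined flanks this share was 4.21% beside BCR and 11.2% beside ABL1.

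The median fold enrichment ran the other way. For codanin-1 it was 3.54 (quartiles 3.29 to 3.87) in BCR and 3.50 (3.27 to 3.77) in ABL1, on the fused sides, below the 3.97 (3.79 to 4.29) of the whole list. The joined flanks had medians of 3.57 and 3.50, and all codanin-1 peaks of chromosomes 22 and 9 had medians of 3.74 and 3.88. For GATA1 it was 3.79 (3.66 to 3.97) and 3.81 (3.60 to 4.08), below 4.18 (3.96 to 4.42). GATA1 medians were 3.89 and 3.93 in the joined flanks, and 4.09 and 4.07 over chromosomes 22 and 9. The median −log10 q of codanin-1 peaks was 1.78 in BCR and 1.86 in ABL1, above the list's 1.60. It was 1.75 and 1.68 in the joined flanks, and 1.64 and 1.65 over chromosomes 22 and 9. For GATA1 the median −log10 q was 1.57 in BCR and 1.62 in ABL1, and 1.61 in the list. In BCR, the 4 codanin-1 peaks of the lost side had a median fold of 3.89 and a median width of 528 bp.

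**Figure D5:**
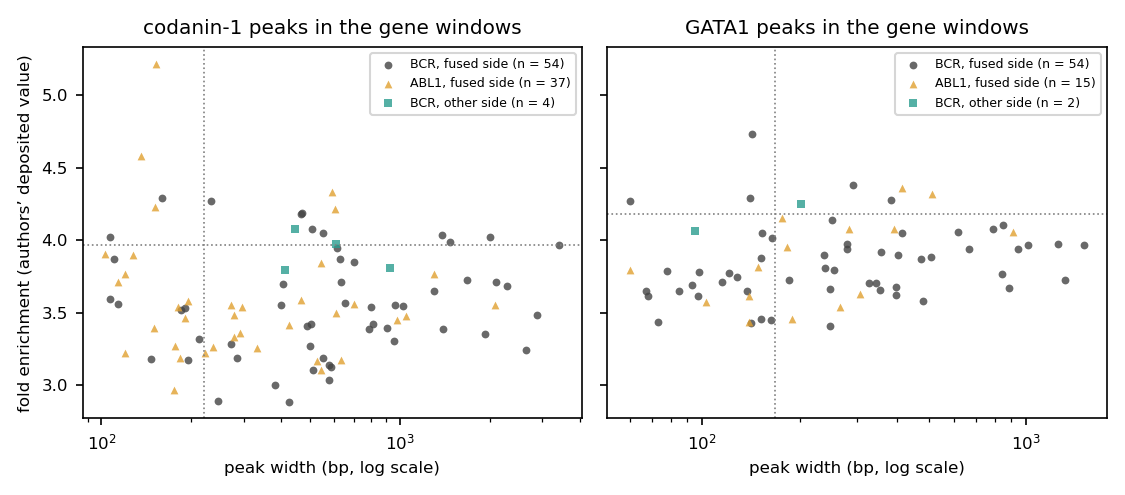
Width (bp, log scale) and deposited fold enrichment of each member peak, for codanin-1 (left) and GATA1 (right); dotted lines mark the median width and fold of the whole list. Most points lie below the dotted fold line of 3.97 or 4.18, and the codanin-1 points of BCR spread farther right, up to 3423 bp, than those of ABL1.

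The codanin-1 peaks of highest fold in BCR were modest. They were at chr22:23607500-23607659 (4.29-fold), chr22:23538480-23538712 (4.27-fold) and chr22:23608449-23608918 (4.19-fold), and each of the 3 overlapped a GATA1 peak. For GATA1 in BCR they were at chr22:23617150-23617292 (4.73-fold, with no codanin-1 peak), chr22:23576234-23576526 (4.38-fold) and chr22:23625267-23625407 (4.29-fold), the last 2 on codanin-1 peaks. The widest codanin-1 peak, chr22:23625932-23629354, measured 3423 bp, with its midpoint 4.96 kb before the breakpoint. The widest GATA1 peak, chr22:23622857-23624368, measured 1512 bp and overlapped a codanin-1 peak by 1233 bp. The widest peaks of both lists in BCR thus lay in the last 10 kb before the breakpoint.

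At the 5′ end of BCR, the codanin-1 peak at chr22:23521606-23522567 (962 bp, 3.56-fold) crossed the edge of the gene window, with its midpoint 86 bp inside. A GATA1 peak at chr22:23521758-23521963 (3.57-fold) lay within it but ended 37 bp before the edge and so was not a member. The GATA1 peak that opens the BCR window, chr22:23523847-23525168, was 1322 bp wide and 3.73-fold enriched.

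In ABL1 the codanin-1 peak of highest fold was at chr9:133667025-133667176, with a fold of 5.22 and a −log10 q of 5.51, the highest of both values among the 95 codanin-1 members. It was 152 bp wide, had its midpoint 60.1 kb after the breakpoint and overlapped a GATA1 peak of 3.80-fold by 60 bp. It was followed by neighbouring peaks at chr9:133735332-133735467 (4.58-fold) and chr9:133735898-133736488 (4.33-fold), neither on a GATA1 peak. The GATA1 peaks of highest fold in ABL1 were at chr9:133710881-133711295 (4.36-fold), chr9:133759659-133760172 (4.32-fold) and chr9:133760573-133760748 (4.16-fold). The widest peaks of both lists were at the 3′ end of the gene, at chr9:133761471-133763551 for codanin-1 (2081 bp) and chr9:133761837-133762745 for GATA1 (909 bp), and the GATA1 peak lay wholly inside the codanin-1 peak. The longest stretch of ABL1 without a codanin-1 peak was 21.8 kb (chr9:133674688-133696475) and without a GATA1 peak 31.6 kb (chr9:133678573-133710164), both on the fused side.

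Sites shared between the lists were counted by an overlap of at least 1 bp. In BCR 31 of 58 codanin-1 peaks (53.4%, 39.9 to 66.7) overlapped a GATA1 peak, against 6.60% of the whole codanin-1 list. In the flank joined to its fused side 38 of 67 did (56.7%, 44.0 to 68.8), so the sharing was not particular to BCR. In ABL1 9 of 37 did (24.3%, 11.8 to 41.2), and in the flank joined to its fused side 58 of 87 (66.7%, 55.7 to 76.4). Of the GATA1 peaks, 41 of 56 in BCR (73.2%, 59.7 to 84.2) and 9 of 15 in ABL1 (60.0%, 32.3 to 83.7) met a codanin-1 peak, where the share over the full GATA1 list was 20.2%. In the joined flanks 61 of 95 GATA1 peaks did so beside BCR (64.2%, 53.7 to 73.8) and 70 of 134 beside ABL1 (52.2%, 43.4 to 60.9). The difference between the genes was not tested, and the overlap of their intervals does not show that the shares are alike. At a −log10 q of 2 or more in both lists, 33.3% of the GATA1 peaks were shared in each gene (2 of 6 and 1 of 3). Of the codanin-1 peaks, 11.1% were then shared in BCR (2 of 18) and 7.69% in ABL1 (1 of 13). The shares over the whole lists were not computed at that threshold. How much of a region the other list covers sets how easily peaks meet. GATA1 peaks covered 18.5% of the fused side of BCR, 2.69% of that of ABL1 and 32.5% of the ABL1 flank, and the part of this coverage in the shared peaks was not tested. On the fused side of BCR 13.1 kb were covered by both lists, which is 29.7% of the bases under codanin-1 peaks and 63.7% of those under GATA1 peaks. In ABL1 2.23 kb were covered by both, 14.4% and 52.8%.

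The 9 shared codanin-1 sites of ABL1 were spread along the fused side. The 5 nearest the breakpoint lay at chr9:133609780-133610110 (3.26-fold for codanin-1), chr9:133631985-133632965 (3.45-fold), chr9:133641730-133641880 (4.23-fold), chr9:133652990-133653596 (4.21-fold) and the peak of highest fold named above. A further site lay at chr9:133709959-133710500 (3.84-fold). The remaining 3, close to the 3′ end of ABL1, were at chr9:133759286-133760334 (3.48-fold), chr9:133760758-133761053 (3.54-fold) and the widest peak. In BCR the shared codanin-1 peaks with the highest fold after the 3 named above were at chr22:23576296-23577678 (4.03-fold) and chr22:23609745-23609851 (4.02-fold).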

How the data were processed

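Peak lists of the codanin-1 and GATA1 libraries were analysed. BWA, MACS2 and build hg19 are named in the submitters' processing notes, without versions or roles. Which background, threshold, filters or pooling went into the calls is not given in the sources used here. The deposited files have 9 columns in broad peak layout. Fold enrichment is the authors' deposited ratio over the caller's background, and −log10 p and −log10 q are likewise deposited values on the −log10 scale. The deposited score repeats 10 times the −log10 q and was not used. The smallest −log10 q was 1.01 for codanin-1 and 1.00 for GATA1. Depth is unknown, so list lengths do not rank the antibodies.

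Midpoints were counted by side of each breakpoint. Density ratios carry exact conditional intervals, densities exact Poisson and shares Clopper-Pearson intervals, all at 95%. Where a side held 0 peaks, the ratio was taken against a limit of 3 counts over that side, and its exact interval has only a lower end. No p-value was computed. Peaks named are, per gene and list, the 3 of highest fold, the widest, those nearest the breakpoint and the longest gap, and the shared codanin-1 peaks (5 where over 10). All lost-side peaks and those at window edges were also named, after their values were seen. Members, windows and breakpoints were chosen with earlier results of these data known. Interval code was tested on simulated data. Python 3.11.15, numpy 2.4.6, scipy 1.17.1 and pandas 2.3.3 were used.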

Additional observations from a re-analysis of the deposited data

How the results depend on the processing

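Of the 52 alternatives for the fused over the lost side, 31 had peaks or covered bases on the lost side, and in these the ratio was above 1. The exact interval, given for 29 of them, lay above 1 in 22. The other 21 had 0 peaks on the lost side, which fixes the direction, and 13 of their bounds against 3 counts were under 1. For BCR the ratio rose to 22.2 for codanin-1 with 200 kb flanks, and to 14.5 with merged peaks and flanks, a setting added after seeing the data. For GATA1 in BCR it was 1.54 at a fold of at least 4, and the bound was 0.514 when a −log10 q of 2 or more was required, where 6 and 0 peaks were left. For ABL1 the codanin-1 bound was 0.990 with the breakpoint moved 5 kb towards the 5′ end, 0.955 after merging, 0.497 at a −log10 q of at least 2 and 0.191 at a fold of at least 4. The GATA1 bounds were 0.401 with that move, 0.344 after merging and 0.229 at that fold. Bounds under 1 show no difference, and they fall with the number of peaks because the limit of 3 counts is fixed. At a −log10 q of at least 5, both genes had too few peaks for a value, as had GATA1 in ABL1 at a −log10 q of at least 2 or with equal lengths. Covered bases gave no ratio in ABL1, whose lost side has 0 covered bases.

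The gene windows over flanks of 50 kb and 100 kb gave bounds of 6.95 and 13.9 for codanin-1 and 6.71 and 13.4 for GATA1 after BCR. Before ABL1 they were 3.52 for codanin-1 at 50 kb, and 1.43 and 2.86 for GATA1. These bounds shrink with the flank by construction. Before BCR the GATA1 ratio was 0.584 at 100 kb. Shares of overlapping peaks depended on the rule. With 0.5 of both lengths they were 17.2% of codanin-1 and 17.9% of GATA1 peaks in BCR, and 2.70% and 6.67% in ABL1. Within 1 kb they were 72.4% and 98.2% in BCR, and 40.5% and 93.3% in ABL1. At a −log10 q of at least 2 in both lists they were 11.1% and 33.3% in BCR and 7.69% and 33.3% in ABL1. No paired analysis was possible because there was a single library for each antibody, and no library could be left out.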
